A study of Mus musculus with 18 samples.

Results

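The circadian clock genes described here are 10 genes, Nr1d1, Nr1d2, Per1, Per2, Cry1, Cry2, Dbp, Tef, Clock and Arntl, of the 17207 genes with at least 1 read. They were listed by name, and Nr1d1, which leads the list, was chosen by the fall of its ribosome occupancy in these same libraries, so the values of Nr1d1 are a description and carry no p-value. All 10 had reads, and 8 of them passed the filter of a mean count of at least 5 per library in each assay that 7866 genes passed. Tef and Arntl did not, and are given by their values alone. The cells were MIN6, a mouse insulinoma line that keeps many traits of pancreatic β-cells, so 1 tumour-derived line stands for the cell type. Control cells received DMSO for 18 h, and stressed cells received 200 µM cyclopiazonic acid (CPA), which blocks the SERCA pump and so empties the calcium store of the ER, for 1 h (CPA1, acute ER stress) or 18 h (CPA18, chronic ER stress). mRNA-seq of poly(A) RNA and Ribo-seq of ribosome-protected fragments were done on every treatment in 3 independent experiments, which gave 18 libraries. Ribosome occupancy is the Ribo-seq level of a gene divided by its mRNA-seq level.

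The clock of mammalian cells is a loop of transcription factors. CLOCK and ARNTL (BMAL1) bind E-box elements and switch on the Per and Cry genes, whose proteins return to the nucleus and inhibit them. The same pair of activators drives Nr1d1 and Nr1d2 (REV-ERBα and REV-ERBβ), nuclear receptors that repress Arntl, and Dbp and Tef, PAR bZIP factors that pass the rhythm on to output genes. In β-cells the clock is known to shape insulin secretion. No synchronisation step and no hour of harvest are given in the sources used here, so the phase of the clock in these cultures is not known. Control cells had spent 18 h with the vehicle and CPA1 cells only 1 h with CPA, and the effect of CPA and of this difference in time cannot be told apart in the comparison of CPA1 with control.

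Total counts ranged from 520960 to 4755030 in mRNA-seq and from 168129 to 1083297 in Ribo-seq, and a clock gene had between 0 and 597 reads in a library, with a median of 23.5 in mRNA-seq and 9.0 in Ribo-seq. Of the 10 β-cell markers, all had reads in every group. The acinar, fibroblast and immune lists, which hold 11 genes, had at most 133 reads in total in any group, and 112 of those were reads of Cd74 in CPA18 mRNA-seq. The stress gene Ddit3 (CHOP) had a mean of 19.3, 65.6 and 408 RPKM in control, CPA1 and CPA18 mRNA-seq. Reads on Lars2 took 45.1% to 54.8% of the mRNA-seq counts of experiment 1 and 4.75% to 38.1% of those of experiments 2 and 3, against 0.083% to 3.51% in Ribo-seq. The share of the insulin genes Ins1 and Ins2 fell from control to CPA18 in every experiment and in both assays. In experiment 2 it went from 20.9% to 4.94% in mRNA-seq and from 21.1% to 6.81% in Ribo-seq. Values of all other genes scaled to the total move with the Lars2 and insulin shares. Their joint part in the changes below was measured by taking Ins1, Ins2 and Lars2 out of the totals. The part of Lars2 alone was not tested. The median gene changed by -0.12 (CPA1 against control), 0.34 (CPA18 against control) and 0.46 (CPA18 against CPA1) on the log2 scale in mRNA-seq, and by 0.06, 0.33 and 0.27 in Ribo-seq, and changes are also given relative to it. The titles and descriptions of both control libraries of experiment 2 name opposite assays. They were placed by their titles, and the Lars2 share of each was 7.19% for the mRNA-seq and 0.083% for the Ribo-seq library.

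Nr1d1 lies on chromosome 11, at chr11:98767932-98775377 of GRCm38.p6 on the minus strand, and has 8 exons. Per1 lies on the same chromosome at chr11:69095108-69109965 on the plus strand. Cry1 is at chr10:85131700-85185054 and Cry2 at chr2:92403646-92434085, both on the minus strand. These spans cover all RefSeq transcripts of a gene, predicted ones included, so the start of a single transcript can lie inside them. The 250 bases before a curated transcript start of each of these 4 genes, to which the results below return, are shown 5′ to 3′ on the gene's strand, with letters that match a searched motif in capitals. The E-box CACGTG and the related E-prime box CACGTT are sites of CLOCK and ARNTL, and AGGTCA is the short core of the sites that NR1D and ROR receptors bind. The windows are chr11:98775378-98775627 for Nr1d1, chr11:69098699-69098948 for Per1 (the upstream of its 2 listed starts, inside the gene's span), chr10:85185055-85185304 for Cry1 and chr2:92434070-92434319 for Cry2 (its transcript starts just inside the span), from RefSeq on GRCm38.p6.
Nr1d1: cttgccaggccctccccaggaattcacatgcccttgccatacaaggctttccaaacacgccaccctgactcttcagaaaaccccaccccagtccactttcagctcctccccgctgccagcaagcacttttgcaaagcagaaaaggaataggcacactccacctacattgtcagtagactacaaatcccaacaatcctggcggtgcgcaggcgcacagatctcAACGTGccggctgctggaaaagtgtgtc
Per1: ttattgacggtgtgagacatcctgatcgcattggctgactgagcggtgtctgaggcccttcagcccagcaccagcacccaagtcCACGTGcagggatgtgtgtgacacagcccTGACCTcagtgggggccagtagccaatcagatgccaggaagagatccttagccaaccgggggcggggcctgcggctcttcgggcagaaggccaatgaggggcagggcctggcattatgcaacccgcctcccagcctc
Cry1: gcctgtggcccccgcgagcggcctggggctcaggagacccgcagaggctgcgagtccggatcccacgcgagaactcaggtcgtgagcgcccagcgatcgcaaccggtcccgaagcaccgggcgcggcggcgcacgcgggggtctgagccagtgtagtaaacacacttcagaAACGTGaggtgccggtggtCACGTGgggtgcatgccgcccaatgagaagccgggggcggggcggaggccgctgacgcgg
Cry2: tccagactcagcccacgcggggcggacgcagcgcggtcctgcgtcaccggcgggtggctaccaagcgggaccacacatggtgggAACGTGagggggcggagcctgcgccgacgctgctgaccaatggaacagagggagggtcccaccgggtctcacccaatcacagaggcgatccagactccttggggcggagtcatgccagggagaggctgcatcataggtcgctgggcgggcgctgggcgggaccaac
Nr1d1 and Cry2 hold an E-prime box, 28 to 23 and 166 to 161 bases before the start, on the reverse strand (AACGTG). Cry1 holds both boxes, and Per1 an E-box and a receptor core at 1 of its starts. Of the 9 members with a window, 3 held an E-box (Per1, Cry1 and Tef) against 6.02% of 32851 RefSeq windows of this length, 3 an E-prime box against 3.85%, and 3 a receptor core (Nr1d2, Per1 and Clock) against 14.02%, with both strands searched. Some members have several starts, and counted by window, as the RefSeq shares are, the E-box, E-prime box and receptor core were in 4, 3 and 3 of the members' 14 windows. The windows of Dbp and Arntl held none of these 3 motifs. The D-box TTATGTAA that DBP and TEF bind, its variant TTACGTAA, the CRE TGACGTCA, the ATF4-CHOP site TGATGNAAT and the ER stress element ERSE were in no member's window and in 0.819%, 0.113%, 1.55%, 0.816% and 0.113% of all windows. A match is a description of the letters, and no match says only that the letters are not in this window.

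In unstressed cells, Dbp had the highest mRNA level of the 10 genes, 12.1 ± 4.16 RPKM (SD, n = 3), followed by Nr1d2 with 9.09 ± 10.5, Cry2 with 6.91 ± 3.20, Per1 with 5.86 ± 3.31, Nr1d1 with 5.84 ± 0.903 and Tef with 4.87 ± 1.98. The low group was Per2 with 1.44 ± 1.03, Cry1 with 1.27 ± 0.592, Clock with 0.975 ± 0.728 and Arntl with 0.263 ± 0.340 RPKM. Neighbours in this order within each group differed by less than the larger of their SDs. In Ribo-seq the order began with Nr1d2 at 18.2 ± 5.22 and Nr1d1 at 15.7 ± 7.69 RPKM and again ended with Arntl at 0.491 ± 0.134 RPKM. RPKM divides by the whole transcript, of which 66.8% was coding in Nr1d1, 37.3% in Nr1d2, about 83.0% in Per1 and 20.7% to 21.3% in Tef, so ribosome occupancy was compared within a gene and not between genes.

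**Figure D1:**
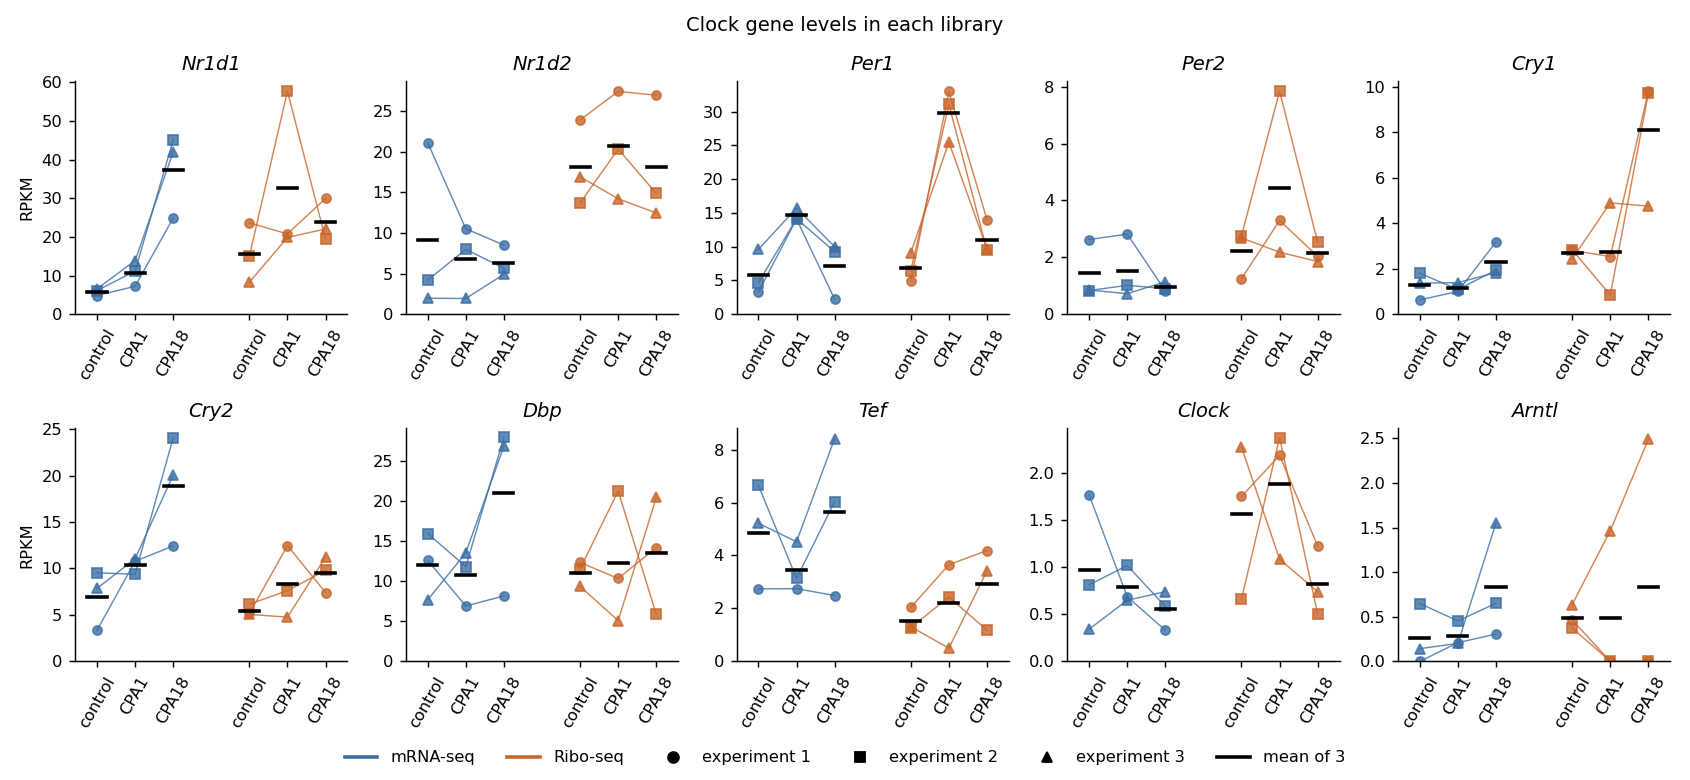
RPKM (y axis) of the 10 clock genes in each of the 18 libraries, by treatment (x axis), with mRNA-seq in blue, Ribo-seq in orange, 1 marker shape and line per experiment and a black bar for the mean of 3. Nr1d1 mRNA rose to between 24.9 and 45.1 RPKM in CPA18, and Per1 peaked in CPA1 in both assays.

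Per1, whose protein is a repressor of the loop and whose gene is a known immediate-early gene in many cells, was higher in CPA1 and had come down in CPA18. Cry2, another repressor, was higher in CPA18, and Nr1d1 mRNA was 6.49-fold and its footprints 1.68-fold higher in CPA18 than in control. Of the 7 tested members other than Nr1d1, edgeR's quasi-likelihood test with Benjamini-Hochberg adjustment called 1 in mRNA-seq for CPA1 against control, where 0.750% of all tested genes were called, 2 for CPA18 against control (34.5% of all genes) and 3 for CPA18 against CPA1 (38.7% of all genes). In Ribo-seq it called 1 member in each comparison, where 5.78%, 28.7% and 22.2% of all genes were called. None of these 7 was called in ribosome occupancy, where 0.0890%, 0.318% and 0.0636% of all genes were called, and 0 of the 7 had an unadjusted p under 0.05. DESeq2 and limma also called 0. Levels in all 3 libraries of CPA1 lay above those of control for Nr1d1 and Per1 in mRNA-seq (1.72% of all genes) and for Per1 in Ribo-seq (10.0%). Levels in CPA18 lay above those of control for Nr1d1, Cry1 and Cry2 in mRNA-seq (14.6%) and for Per1, Cry1 and Cry2 in Ribo-seq (27.5%). Against CPA1, those of CPA18 lay higher for Nr1d1, Cry1 and Cry2 (15.3%) and lower for Per1 (5.81%) in mRNA-seq. In Ribo-seq they lay lower for Per1 (8.99%). With Ins1, Ins2 and Lars2 out of the totals, CPA18 overlapped control for Cry1 mRNA and Per1 footprints. It then overlapped CPA1 for Cry1 and Cry2 mRNA, and CPA1 lay above control for Cry2 mRNA. Ribosome occupancy did not overlap for Per1 in CPA1 against control (higher, 4.84%) and for Cry2 in CPA18 against control (lower, 4.59%). Nr1d1 was also lower without overlap in CPA18 against control and against CPA1 (5.45%). This fall chose Nr1d1, so its place in these counts is a description. The shares called at 18 h were close to those of all genes in mRNA-seq and no larger in Ribo-seq. The direction of calls over all genes depends on the scaling. For CPA18 against control 2044 of the 2714 called genes rose in mRNA-seq and 1721 of 2258 in Ribo-seq, and with TMM normalization 1350 of 2648 and 916 of 1858 rose. The comparisons of CPA1 and of CPA18 with control share the control libraries. In bulk libraries, fewer cells that express a gene and less RNA per cell cannot be told apart.

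**Figure D2:**
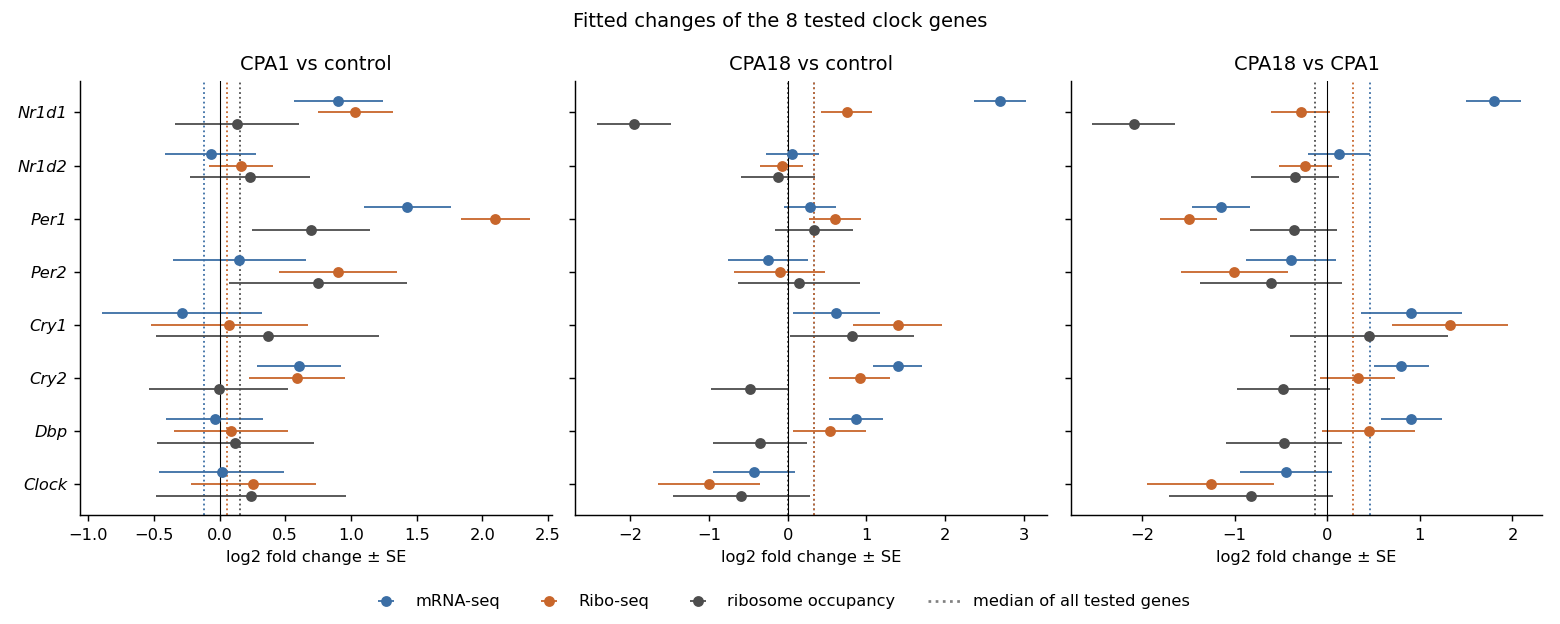
log2 fold change ± SE (x axis) of the 8 tested clock genes (y axis) in 3 comparisons, for mRNA-seq (blue), Ribo-seq (orange) and ribosome occupancy (grey), with dotted lines at the median of all tested genes. In CPA18 against control Nr1d1 mRNA stood at 2.70 and its occupancy at -1.96, and in CPA1 against control Per1 footprints stood at 2.10.

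Nr1d1 encodes REV-ERBα, a heme-binding nuclear receptor that represses its targets with a histone deacetylase complex. Its mRNA level was 4.83, 6.12 and 6.57 RPKM in control, 7.23, 11.2 and 13.9 RPKM in CPA1 and 24.9, 45.1 and 42.0 RPKM in CPA18, in experiments 1, 2 and 3. Every CPA1 library lay above every control library and every CPA18 library above every CPA1 library, and in each experiment the 3 treatments kept this order. Its mRNA was 6.49-fold higher in CPA18 than in control, a fitted log2 fold change of 2.70 ± 0.33 (SE), and the change in CPA1 was 0.90 ± 0.34. Above the median gene these were 2.36 and 1.02, and 52 of the 7866 tested genes rose more in CPA18. When the totals excluded Ins1, Ins2 and Lars2 the CPA18 value was 2.43. The lowest value rested on 7 reads in the control library of experiment 1, 13.4 RPM with an exact 95% Poisson interval of 5.40 to 27.7 RPM for counting error, and without experiment 1 the log2 fold change was 2.78.

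Footprints of Nr1d1 were higher in CPA18 than in control in 3 of 3 experiments, by a smaller factor than its mRNA. Ribo-seq gave 23.6, 15.1 and 8.30 RPKM in control, 20.8, 57.7 and 19.9 RPKM in CPA1 and 30.0, 19.5 and 22.1 RPKM in CPA18. The groups overlapped, and the highest value was that of CPA1 in experiment 2, so the order of CPA18 and CPA1 rests on that experiment. The fitted log2 fold change was 1.03 ± 0.28 in CPA1 and 0.75 ± 0.32 in CPA18 against control. Between CPA18 and CPA1 it was -0.28 ± 0.32, which turned to 0.38 without experiment 2. Without that experiment the CPA1 value against control was 0.45, and without experiment 1 it was 1.66. Without experiment 3 the CPA18 value was 0.32. These footprint values rest on between 11 and 63 reads per library.

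Ribosome occupancy of Nr1d1 was 4.90, 2.46 and 1.26 in control, 2.87, 5.17 and 1.43 in CPA1 and 1.20, 0.431 and 0.526 in CPA18. All 3 CPA18 values lay below all control and all CPA1 values, by a small margin in the case of 1.20 and 1.26. Each value was also divided by the occupancy of the median gene of the same treatment and experiment. The CPA18 values were then 0.612, 0.420 and 0.520 and the control values 3.51, 2.12 and 1.02. The fitted log2 change was -1.96 ± 0.47 for CPA18 against control and -2.09 ± 0.45 for CPA18 against CPA1, and 32 and 25 of 7866 genes fell further. CPA1 against control was 0.13 ± 0.47, and it was 0.68 without experiment 1 and -0.47 without experiment 2. Over the alternatives tried the change of CPA18 against control lay between -2.14 and -1.79, and between -2.37 and -1.75 when 1 experiment was left out. The change of CPA18 against CPA1 was -1.29 without experiment 2. Because this fall chose the gene, it is a description and not a test.

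**Figure D3:**
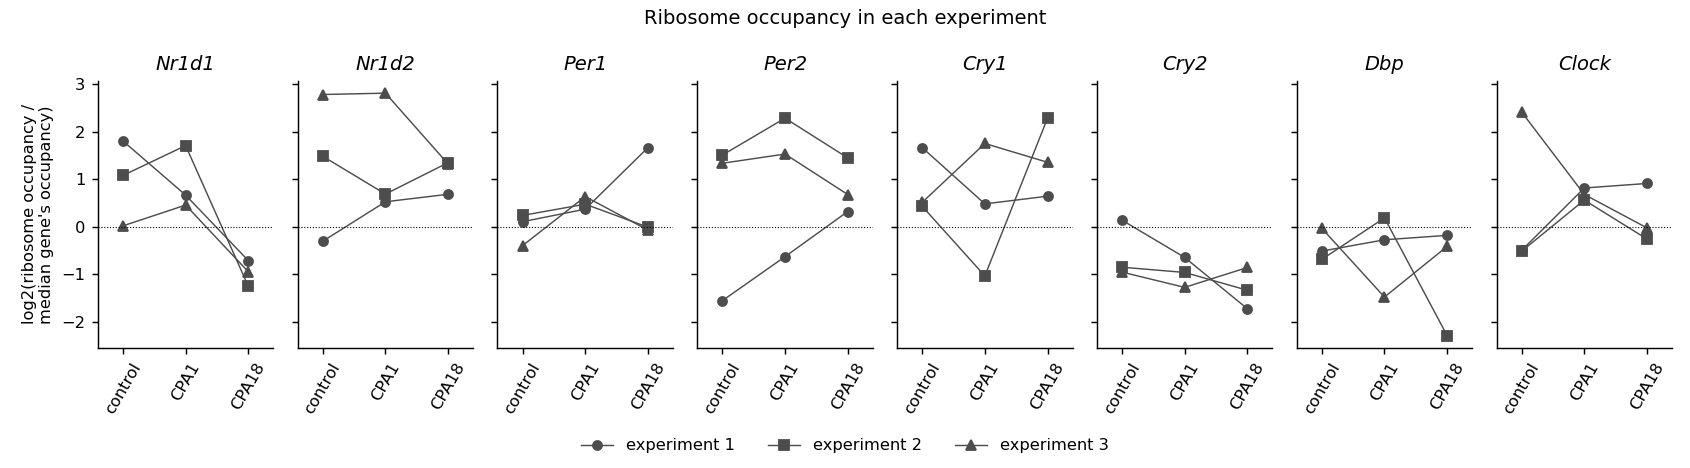
Ribosome occupancy divided by that of the median gene of the same treatment and experiment, as log2 (y axis), by treatment (x axis). The 8 tested clock genes are shown, with 1 marker shape and line per experiment. The dotted line marks the median gene, and Nr1d1 was lower in CPA18 than in control and CPA1 in all 3 experiments.

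The 3′ end of Nr1d1 overlaps Thra, the gene of thyroid hormone receptor α on the other strand, over 471 bases or 17.03% of its exonic sequence, and whether the counting used strand is not given in the sources used here. Thra had 16.4, 17.9 and 17.4 RPKM in control and 7.13, 18.8 and 19.5 RPKM in CPA18 mRNA-seq, so its level overlapped between the groups. For CPA18 against control its mRNA changed by -0.20 ± 0.31 and its footprints by -0.14 ± 0.61 on the log2 scale (adjusted p = 0.655 and 0.897, edgeR), and it was not called in either assay. How the reads of the shared stretch were divided was not tested.

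Nr1d2, the gene of the related receptor REV-ERBβ, was not called in any comparison. Its mRNA was 21.1, 4.19 and 1.97 RPKM in control, 10.5, 7.98 and 1.94 RPKM in CPA1 and 8.50, 5.67 and 4.91 RPKM in CPA18. Experiment 1 was high in all treatments, and the spread between experiments was wider than any difference between treatments. Ribo-seq lay between 12.5 and 27.4 RPKM in all 9 libraries. The log2 fold change of CPA18 against control was 0.06 ± 0.34 in mRNA-seq (95% interval -0.60 to 0.72) and -0.08 ± 0.27 in Ribo-seq (-0.61 to 0.46), with adjusted p-values of 0.907 and 0.869 (edgeR). Of its 25-base windows 11.7% also occur in other transcripts on the same strand, which makes its counts less certain.

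Per1 rose in CPA1. Its mRNA was 3.29, 4.68 and 9.60 RPKM in control, 14.1, 14.1 and 15.7 RPKM in CPA1 and 2.24, 9.27 and 10.0 RPKM in CPA18. The CPA1 libraries were close together and above all others, and the CPA18 libraries overlapped with control. In Ribo-seq Per1 was at 4.95, 6.44 and 9.08 RPKM in control, 32.99, 31.1 and 25.5 RPKM in CPA1 and 14.01, 9.48 and 9.66 RPKM in CPA18. Here the 3 treatments did not overlap, with CPA1 highest and control lowest. The gap between control and CPA18 was small, 9.08 against 9.48 RPKM, on 46 and 9 reads. With Ins1, Ins2 and Lars2 out of the totals, control reached 11.1 RPKM and CPA18 went down to 10.3, so control and CPA18 overlapped. Footprints were 4.29-fold higher in CPA1 than in control, a log2 fold change of 2.10 ± 0.26 (adjusted p = 1.01e-10, edgeR's quasi-likelihood test), higher in 3 of 3 experiments, and 23 of 7866 genes rose more. They fell by 1.496 ± 0.31 on the log2 scale from CPA1 to CPA18 (adjusted p = 4.06e-05). Both footprint changes kept their call under all 13 alternatives, with adjusted p-values of at most 0.0162.

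The mRNA of Per1 rose by 1.43 ± 0.33 in CPA1 (log2, adjusted p = 0.00842, edgeR), higher in 3 of 3 experiments, and fell by 1.15 ± 0.31 from CPA1 to CPA18 (adjusted p = 0.00216). The rise kept its direction throughout but its call in only 3 of 13 alternatives, and totals that excluded Ins1, Ins2 and Lars2 gave 1.57 with an adjusted p of 0.0934. Without the control libraries of experiment 2 it was 1.18 (adjusted p = 0.780), without experiment 1 1.10 (0.309) and without experiment 2 1.32 (0.314). The fall from CPA1 to CPA18 kept its call in 11 of 13, and without experiment 1 it was -0.62 (0.149). Ribosome occupancy of Per1 was 1.51, 1.38 and 0.947 in control and 2.34, 2.20 and 1.62 in CPA1, so that the groups did not overlap, as in 4.84% of all genes. The change of 0.70 ± 0.45 did not pass the test (adjusted p = 0.876, edgeR). In CPA18 it was 6.25, 1.02 and 0.967, and the high value of experiment 1 rests on 13 mRNA reads and 11 footprints. CPA18 against control missed the threshold in mRNA-seq (0.28 ± 0.33, adjusted p = 0.534) and Ribo-seq (0.60 ± 0.33, adjusted p = 0.171).

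Per2, the partner of Per1 in the same repressor complex, was measured with few reads. It had 2.63, 0.832 and 0.853 RPKM of mRNA in control, 2.82, 1.02 and 0.723 RPKM in CPA1 and 0.827, 0.900 and 1.14 RPKM in CPA18. Footprints were at 1.25, 2.76 and 2.68 RPKM in control and 3.30, 7.84 and 2.18 RPKM in CPA1. The groups overlapped in both assays, and experiment 3 went down where the others went up. The footprint change in CPA1 was 0.90 ± 0.45 on the log2 scale (adjusted p = 0.288, edgeR), with a 95% interval of 0.02 to 1.78.

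Cry2 and Cry1 encode the cryptochromes, the repressors that act with the PER proteins. Cry2 mRNA was 3.34, 9.53 and 7.85 RPKM in control, 10.8, 9.37 and 11.04 RPKM in CPA1 and 12.4, 24.1 and 20.1 RPKM in CPA18. At these values all CPA18 libraries lay above all others, and control and CPA1 overlapped. Taking Ins1, Ins2 and Lars2 out of the totals changed this order. Control was then 6.92, 13.3 and 11.7 RPKM, CPA1 26.8, 18.9 and 14.9, and CPA18 28.4, 26.9 and 22.2. CPA18 thus overlapped CPA1, and all CPA1 values lay above control. Cry2 mRNA was 2.64-fold higher in CPA18 than in control, and higher in 3 of 3 experiments. The log2 fold change was 1.40 ± 0.31 (adjusted p = 0.0002, edgeR), or 1.07 above the median gene. This call was lost in 1 of 13 alternatives, the fit without the replicate block (adjusted p = 0.120). Against CPA1 the change was 0.80 ± 0.30 (adjusted p = 0.0256), and 0.34 above the median gene, and it fell to 0.38 (adjusted p = 0.223) when the totals excluded Ins1, Ins2 and Lars2, 0.54 (0.266) without experiment 2 and 0.76 (0.176) without experiment 3.

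Cry2 footprints were at 5.15, 6.16 and 5.05 RPKM in control and 7.41, 9.80 and 11.2 RPKM in CPA18. These groups did not overlap, as in 27.5% of all genes in the same direction, and the log2 fold change of 0.92 ± 0.39 missed the threshold (adjusted p = 0.0648, edgeR). Ribosome occupancy of Cry2 was 1.54, 0.646 and 0.643 in control and 0.596, 0.407 and 0.560 in CPA18. The CPA18 values were all lower, as in 4.59% of all genes, and the change of -0.48 ± 0.49 did not pass the test (adjusted p = 0.837). Its 95% interval ran from -1.45 to 0.48.

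Cry1 had between 1 and 28 reads per library. Its mRNA was 0.632, 1.80 and 1.37 RPKM in control and 3.18, 1.94 and 1.83 RPKM in CPA18. The groups did not overlap, as in 14.6% of all genes, but the gap was 1.80 against 1.83 RPKM, on 9 and 10 reads. With Ins1, Ins2 and Lars2 out of the totals, control reached 2.51 RPKM and CPA18 went down to 2.03. Cry1 mRNA then overlapped between the groups. Its footprints were at 2.81, 2.84 and 2.43 RPKM in control, 2.54, 0.839 and 4.90 RPKM in CPA1 and 9.81, 9.73 and 4.76 RPKM in CPA18, and CPA18 lay above control in 3 of 3 experiments. The footprint change of 1.40 ± 0.56 on the log2 scale was just past the threshold (adjusted p = 0.0488, edgeR). It rests on 5, 6 and 8 reads in CPA18 and kept its call in 1 of the 12 alternatives that gave an adjusted p. Without experiment 1, 2 or 3 the adjusted p was 0.180, 0.212 and 0.0826, and without the control libraries of experiment 2 it was 0.0974. The mRNA change of 0.62 ± 0.55 was not called (adjusted p = 0.396).

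The activators Clock and Arntl had the lowest control mRNA levels of the members. Clock had 1.77, 0.813 and 0.342 RPKM of mRNA in control, 0.688, 1.02 and 0.650 RPKM in CPA1 and 0.331, 0.584 and 0.741 RPKM in CPA18, and the treatments overlapped. Its footprints in CPA18 rested on 2, 1 and 4 reads. The log2 fold change of CPA18 against control was -0.43 ± 0.52 for mRNA and -1.003 ± 0.65 for footprints (adjusted p = 0.550 and 0.249, edgeR), with 95% intervals of -1.45 to 0.59 and -2.27 to 0.26.

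Arntl, the partner of CLOCK, had 0, 3 and 1 mRNA reads in control, 1, 2 and 1 in CPA1 and 1, 9 and 8 in CPA18, and 0 to 4 footprints in every library. A count of 0 in the control mRNA-seq library of experiment 1 allows up to 5.76 RPM, taken as 3 counts, and 0 footprints in the CPA18 libraries of experiments 1 and 2 allow 17.8 and 14.8 RPM. Arntl did not pass the filter, and a change in it was not tested.

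Dbp and Tef are the output factors of the loop. Dbp mRNA was 12.6, 15.9 and 7.67 RPKM in control, 6.90, 11.8 and 13.5 RPKM in CPA1 and 8.16, 27.9 and 26.8 RPKM in CPA18. Experiments 2 and 3 were high in CPA18 while experiment 1 lay below its control, so the groups overlapped. The log2 fold change was 0.87 ± 0.35 against control (adjusted p = 0.0401, edgeR), higher in 2 of 3 experiments, and 0.91 ± 0.33 against CPA1 (adjusted p = 0.0226), higher in 3 of 3. Relative to the median gene they were 0.54 and 0.45. The calls held in 2 and 3 of 13 alternatives, and with totals that excluded Ins1, Ins2 and Lars2 the values were 0.65 (adjusted p = 0.102) and 0.46 (0.230). Against control the value was 0.93 without experiment 2 (0.180), 0.31 without experiment 3 (0.716) and 1.01 without the control libraries of experiment 2 (0.110). Against CPA1 it was 0.73 without experiment 2 (0.263) and 0.87 without experiment 3 (0.162).

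The last 539 exonic bases of Dbp, 32.1% of its sequence, overlap Sphk2 on the other strand, the gene of a sphingosine kinase. Sphk2 mRNA was 12.2, 17.6 and 15.9 RPKM in control and 10.5, 39.0 and 36.1 RPKM in CPA18. In CPA18 both genes were low in experiment 1 and high in experiments 2 and 3. In control Dbp was lowest in experiment 3 and Sphk2 in experiment 1. The log2 fold change of Sphk2 was 0.83 ± 0.30 (adjusted p = 0.0240, edgeR), called in 3 of 13 alternatives. It was close to the 0.87 of Dbp, and the part of shared reads in it was not tested. Dbp footprints were at 12.3, 11.5 and 9.35 RPKM in control and 14.2, 5.87 and 20.4 RPKM in CPA18, which overlapped (0.53 ± 0.46, adjusted p = 0.411). Sphk2 footprints rose by 1.39 ± 0.33 (adjusted p = 0.000352). Tef had 2.74, 6.64 and 5.22 RPKM of mRNA in control, 2.74, 3.14 and 4.52 RPKM in CPA1 and 2.49, 6.03 and 8.41 RPKM in CPA18, with 1 to 8 footprints per library, and its treatments overlapped in both assays.

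**Figure D4:**
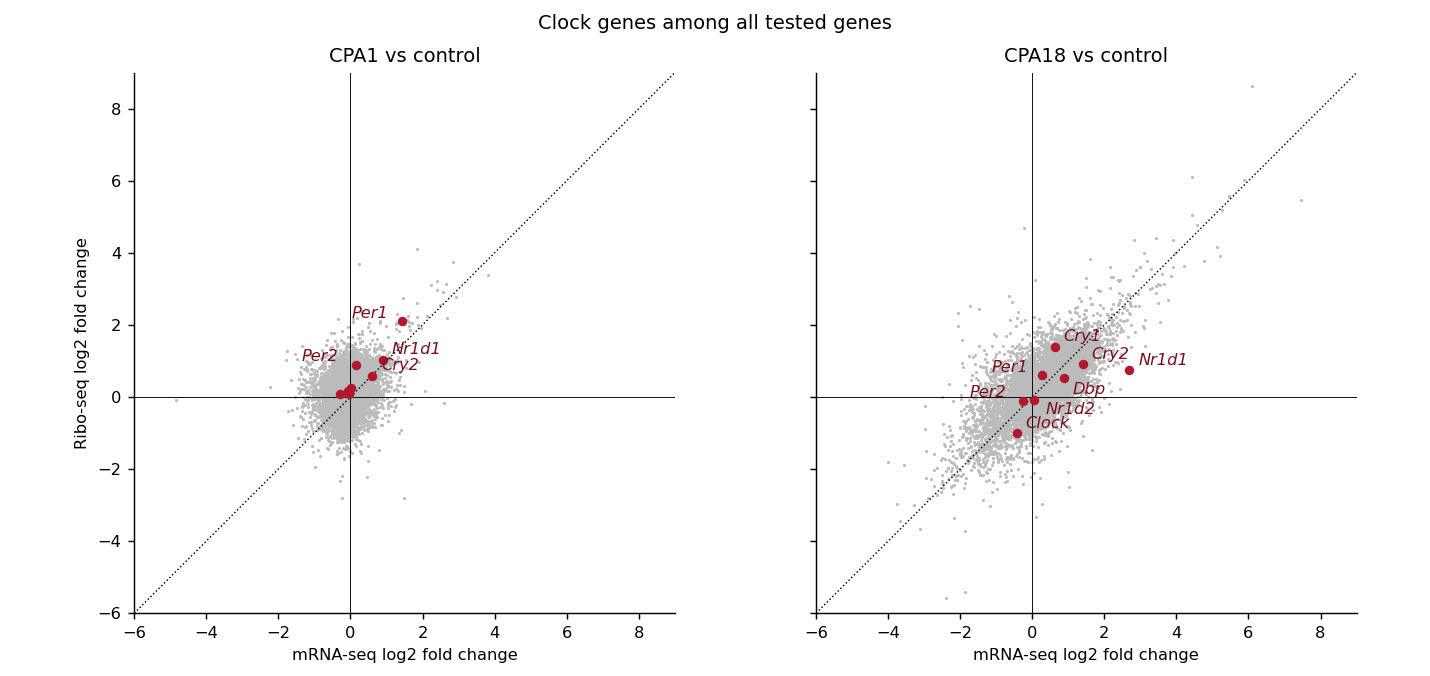
Ribo-seq against mRNA-seq log2 fold change of all 7866 tested genes (grey), for CPA1 against control (left) and CPA18 against control (right), with the 8 tested clock genes in red and a dotted line where both changes are equal. At 1 h Per1 lay far to the upper right, at 1.43 and 2.10, and at 18 h Nr1d1 lay at 2.70 and 0.75, below the line. In the left panel the unnamed points are Nr1d2, Cry1, Dbp and Clock.

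A further 35 genes of the clock were followed from a written list of loop genes, regulators of clock protein stability and outputs, of which 26 passed the filter. For CPA18 against control 5 of the 26 were called in mRNA-seq, where 34.5% of all genes were, and 4 in Ribo-seq, where 28.7% were. All of these rose. Both counts include Ciart, which passed the filter only through CPA18, so its calls are a description. The 26 genes had median mRNA-seq and Ribo-seq log2 fold changes of 0.27 and 0.37, close to the 0.34 and 0.33 of all genes. For CPA1 against control 0 were called in mRNA-seq (1 had an unadjusted p under 0.05, and DESeq2 and limma called 0 higher), and in Ribo-seq 1 rose and 1 fell. None was called in ribosome occupancy, in edgeR, DESeq2 or limma, and 3, 3 and 2 had an unadjusted p under 0.05 in the 3 comparisons.

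Ciart, which encodes CHRONO, an inhibitor of CLOCK and ARNTL, had the largest log2 fold change of the 26 in CPA18 in both assays. Its mRNA had 0, 7 and 6 reads in control, 5, 3 and 9 in CPA1 and 19, 150 and 66 in CPA18, or 0, 3.05 and 1.79 RPKM, 2.19, 1.42 and 3.41 RPKM and 10.97, 22.6 and 26.3 RPKM. The CPA18 libraries stood above all others. For CPA18 against control the log2 fold change was 3.44 ± 0.49 in mRNA-seq (adjusted p = 9.41e-09, edgeR) and 2.87 ± 0.58 in Ribo-seq (adjusted p = 3.35e-05). Both were higher in 3 of 3 experiments and held in all 12 alternatives that could be fitted. Footprint reads of Ciart were 4, 3 and 4 in control, 3, 4 and 3 in CPA1 and 10, 3 and 13 in CPA18. Ciart thus passed the filter on the mean count, with 5.22 footprints per library, only through CPA18. These p-values are therefore a description and not a test. Without the control libraries of experiment 2 the mRNA value was 4.08. Its 250-base window holds 3 E-boxes, none of which was tested for binding. Further loop genes that rose were Bhlhe40 (DEC1), a repressor at E-boxes, with 1.66 ± 0.36 in mRNA-seq (adjusted p = 0.000164), and Nfil3 (E4BP4), which competes with DBP and TEF at D-boxes, with 0.89 ± 0.34 in mRNA-seq (adjusted p = 0.0337) and 1.34 ± 0.49 in Ribo-seq (adjusted p = 0.0295). Nfil3 mRNA was 3.80, 33.7 and 9.87 RPKM in control and 7.98, 37.6 and 39.1 RPKM in CPA18, and the groups overlapped. The labels of the control library of experiment 2 name different assays. In CPA18 of experiment 1, Nfil3 mRNA lay below the control values of experiments 2 and 3. Its mRNA change was 1.95 (adjusted p = 0.000889) without the control libraries of experiment 2, 0.89 (0.0719) without experiment 1, 1.78 (0.00192) without experiment 2 and 0.30 (0.701) without experiment 3. Its footprint change was 1.15 (0.156) without experiment 1 and 1.06 (0.316) without experiment 3. Bhlhe40 footprints were at 6.65, 10.7 and 5.04 RPKM in control and 7.65, 7.91 and 5.22 RPKM in CPA18, and overlapped. Its ribosome occupancy was lower in CPA18 than in control in 3 of 3 experiments, by a log2 change of -1.76 ± 0.57 that did not pass the test (adjusted p = 0.219).

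Bhlhe41 (DEC2), the relative of Bhlhe40, rose in Ribo-seq by 0.90 ± 0.27 in CPA1 (adjusted p = 0.0212, edgeR) and 1.04 ± 0.29 in CPA18 (adjusted p = 0.00289), and its mRNA changes of -0.20 ± 0.30 and 0.23 ± 0.30 were not called. Timeless rose in Ribo-seq by 1.35 ± 0.42 in CPA18 (adjusted p = 0.00969). Of the regulators, the kinase Csnk1d and the F-box protein gene Fbxw11 rose in CPA18 mRNA-seq by 0.70 ± 0.26 and 0.84 ± 0.27 (adjusted p = 0.0296 and 0.0121), and Cul1, a ubiquitin ligase scaffold, fell by 0.96 ± 0.30 in CPA1 Ribo-seq (adjusted p = 0.0360). Csnk1d and Fbxw11 stood 0.36 and 0.50 above the median gene, and each lost its call in 9 of 13 alternatives. Bhlhe40 mRNA kept its call in 12 of 13, Nfil3 in 5 of 13 in each assay, Bhlhe41 footprints in 7 of 13 in CPA1 and 9 of 13 in CPA18, Timeless in 7 of 13 and Cul1 in 5 of 12. With experiment 2 left out the adjusted p was 0.296 for Bhlhe41 in CPA1, 0.145 for Timeless, 0.330 for Cul1, 0.0854 for Csnk1d and 0.0592 for Fbxw11. With experiment 3 left out it was 0.0873 for Bhlhe41 in CPA1 and 0.123 in CPA18, 0.0835 for Timeless, 0.174 for Cul1, 0.324 for Csnk1d and 0.246 for Fbxw11. Without the control libraries of experiment 2 it was 0.126 for Bhlhe41 in CPA1, 0.112 for Timeless, 0.235 for Cul1, 0.125 for Csnk1d and 0.0772 for Fbxw11.

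**Figure D5:**
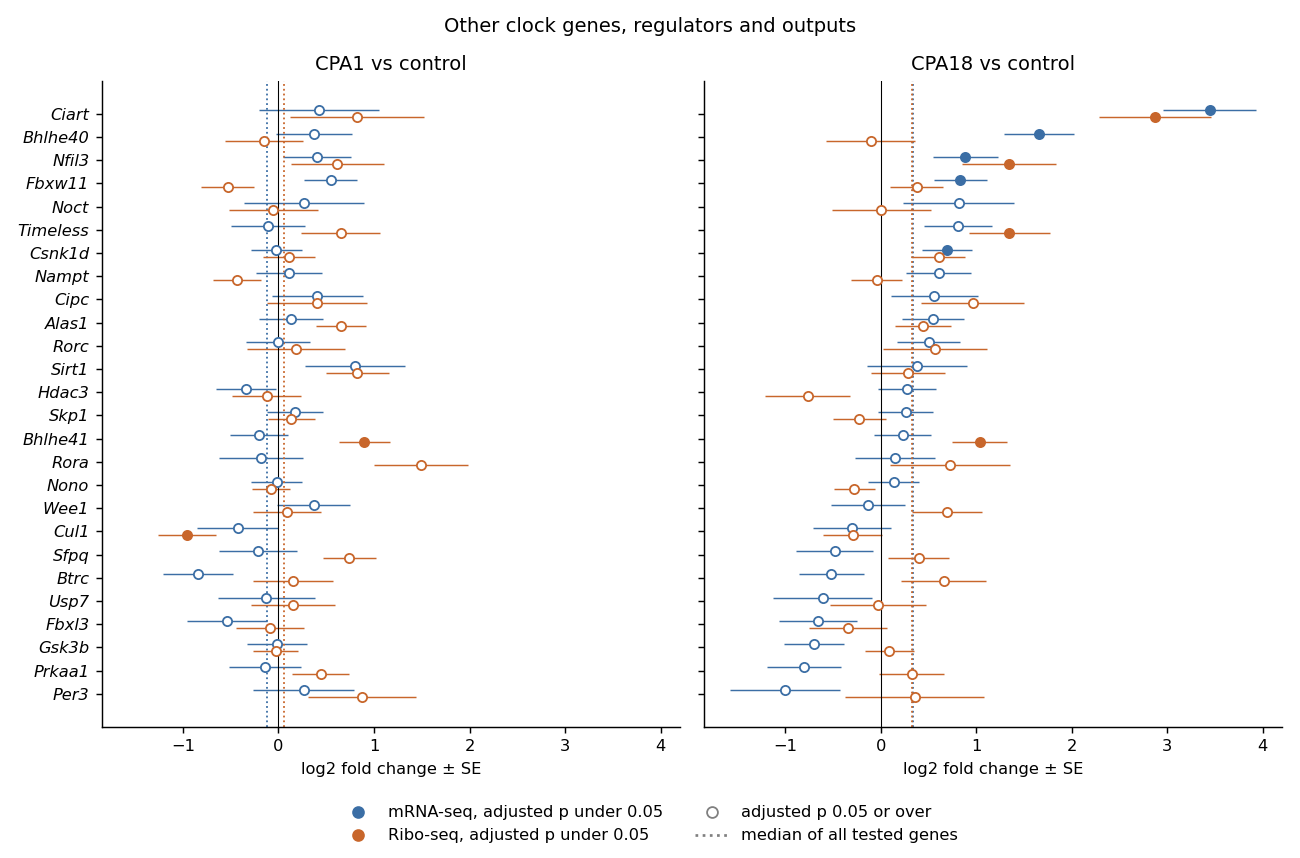
log2 fold change ± SE (x axis) of the 26 tested genes of the further clock list (y axis, ordered by the mRNA-seq change in CPA18), for CPA1 and CPA18 against control in mRNA-seq (blue) and Ribo-seq (orange). Filled points have an adjusted p under 0.05, and dotted lines mark the median of all tested genes. Ciart stood apart in CPA18 at 3.44 and 2.87.

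The genes whose levels ran most like those of Nr1d1 over the 18 libraries, by Pearson's r of log2(RPKM + 0.5) among 5036 genes with a mean of at least 5 RPKM in each assay, were Ptcd1 (r = 0.88), Cherp (0.85), Naa80 (0.85), Usp22 (0.84) and Med20 (0.83). Of the other members, Cry2 and Dbp had an r of 0.47 each, with 1317 and 1316 genes ahead of them, Per1 had 0.32 and Nr1d2 had 0.22. The libraries share assays, experiments and depth, so these are descriptions.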

How the data were processed

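MIN6 cells were assayed by mRNA-seq and Ribo-seq in 3 treatments and 3 independent experiments. The authors filtered reads by quality and length (15 to 40 nt) and mapped them to mouse transcripts of GRCm38, with Bowtie2 as the aligner. The authors deposited counts, RPM (counts scaled to a fixed library total) and RPKM (RPM per kilobase of transcript) for each transcript, 1 library per set of columns. The strand used in counting is not given in the sources used here.

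Transcripts were mapped to RefSeq symbols (30232 of 30741 with the listed version, 478 without it, 31 not matched), and counts and RPKM were summed per gene. Groups came from the labels' titles. Genes with a mean count of at least 5 per library in each assay were tested with edgeR 4.0.16 (R 4.3.3), quasi-likelihood test, total counts as library size and the experiment as a block. Occupancy was the interaction of assay and treatment over 18 libraries. Benjamini-Hochberg adjustment ran over 7866 genes, with a threshold of 0.05. The batch number in the labels pairs libraries. Deviations of same-numbered libraries from their group means had a mean correlation of 0.560 in mRNA-seq (0.109 to 0.759) and 0.124 in Ribo-seq (0.0636 to 0.174). Each mean is over 9 pairs. The lowest mRNA-seq values, 0.109 and 0.112, were those of the CPA1 library of experiment 2, with a Lars2 share of 38.1%. Control and CPA18 of that experiment gave 0.567. The pairing of this CPA1 library is thus weak.

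The alternatives were no block, TMM, DESeq2 size factors, totals without Ins1, Ins2 and Lars2, no filter, the study's filter, the DESeq2 1.42.0 Wald test, limma 3.58.1 on log2(RPKM + 0.5) and log2(RPKM + 1), no control libraries of experiment 2, and each experiment left out. The code was tested on simulated data. The members and lists were chosen with earlier results of these data known. All members, overlapping genes, the genes of the further clock list past the threshold (up to 5 in each direction per comparison) and the 5 genes most like Nr1d1 are named. Intervals and floors (3 counts) cover counting error only. With the experiment as a block, differences in level between experiments are removed. The p-values then rest on how alike the treatment differences were across the experiments and on counting error. Nothing says that the experiments used separately derived cultures beyond their being independent.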

Additional observations from a re-analysis of the deposited data

Results flagged for a closer look

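For 4 values the changes in CPA1 and CPA18 differed by the test of CPA18 against CPA1 itself (edgeR's quasi-likelihood test with Benjamini-Hochberg adjustment), which is why they are listed. Per1 was lower in CPA18 than in CPA1 in 3 of 3 experiments, by a log2 change of -1.15 in mRNA-seq (adjusted p = 0.00216) and -1.496 in Ribo-seq (adjusted p = 4.06e-05). Cry2 mRNA was higher in CPA18 than in CPA1 by 0.80 (adjusted p = 0.0256) and Dbp mRNA by 0.91 (adjusted p = 0.0226), each in 3 of 3 experiments. For Per1 the call held in 11 of 13 alternatives in mRNA-seq and 13 of 13 in Ribo-seq. For Cry2 and Dbp it held in 4 and 3 of 13.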

How the results depend on the processing

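No value turned its direction past a threshold. The counts of called members kept to within 1.5 times in 13 of 13 alternatives for Ribo-seq CPA1 against control (1, Per1) and for ribosome occupancy (0). For mRNA-seq CPA1 against control the count of 1 became 0 without the replicate block, with TMM, DESeq2 size factors or totals without Ins1, Ins2 and Lars2, in the DESeq2 Wald test, in both limma fits and without the control libraries of experiment 2, and lay between 0 and 1 with an experiment left out. For mRNA-seq CPA18 against control the count of 2 became 0 without the replicate block and 1 (Cry2) under those 3 scalings, no filter, DESeq2, limma and without those control libraries, and lay between 1 and 2 with an experiment left out. For CPA18 against CPA1 the count of 3 became 0 without the replicate block and 1 (Per1) under the 3 scalings, no filter and limma, and lay between 1 and 2 with an experiment left out. For Ribo-seq CPA18 against control the count of 1 (Cry1) became 0 without the replicate block, under the 3 scalings, no filter, limma and without those control libraries, and was 0 with any experiment left out. DESeq2 gave Cry1 no adjusted p there. For Ribo-seq CPA18 against CPA1 the count of 1 lay between 1 and 2 with an experiment left out.

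The pairing matters most in mRNA-seq. Without the replicate block the adjusted p (edgeR) was 1.0 for Per1 in CPA1, 0.120 for Cry2 and 0.359 for Dbp in CPA18 against control, and 0.267, 0.282 and 0.254 for Per1, Cry2 and Dbp in CPA18 against CPA1. It was 0.0614 for Cry1 footprints. Over all genes, the calls without the block were 0, 186 and 193 in mRNA-seq, 210, 1876 and 1441 in Ribo-seq and 0, 1 and 0 in ribosome occupancy, against 59, 2714 and 3043, 455, 2258 and 1747, and 7, 25 and 5 with it, in the order CPA1 against control, CPA18 against control and CPA18 against CPA1. The cause of the other losses was not tested.

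Depth limits Arntl, Clock, Cry1, Per2 and Tef, which often had fewer than 10 footprints in a library. It also limits other members in CPA18, where footprints went down to 2 for Dbp, 5 for Cry2 and 9 for Per1 in a library. When the totals excluded Ins1, Ins2 and Lars2 the median gene moved by 0.07, 0.09 and 0.03 in mRNA-seq. For Nr1d1 mRNA the scalings gave 2.30 to 2.43 for CPA18 against control and 1.34 to 1.37 for CPA18 against CPA1. The further clock genes called in CPA18 against control ranged over the alternatives from 1 to 6 higher and 0 to 2 lower in mRNA-seq, and from 1 to 4 higher and 0 to 1 lower in Ribo-seq.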

Other observations

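Rorb, a nuclear receptor gene of the further clock list that was not tested because too few footprints were counted, had 37.9 RPKM of mRNA (558 reads) in the control library of experiment 2 and between 0.34 and 7.08 RPKM in the other mRNA-seq libraries. This is a library whose title and description name different assays.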
